A study of Drosophila melanogaster with 3 samples.

Results

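The 269 genes annotated as snoRNA on the 6 main chromosome arms of Drosophila melanogaster, out of 18164 annotated genes there, were examined for chromatin regions bound by the transcription factor Hey. Members were taken by the annotation's biotype snoRNA, without use of any binding value. A member was counted as near a region when the summit, the position of highest signal in a called region, lay within 1000 bp of the annotated 5′ end of the gene. The libraries were ChIP-seq (sequencing of DNA recovered with a tagged chromatin protein) from embryos collected at 6 to 24 h, both sexes pooled, as 3 biological replicates of 1 group. All embryos came from a transgenic line that carries Hey fused at its C terminus to GFP, and the labels name Hey as the antibody target. A free-text label describes the same libraries as input controls, whereas the assay title, the target and a separately listed control describe transcription factor ChIP, and the libraries are treated here as ChIP. Whole embryos mix all cell types, so the cells that hold a given region cannot be told, and no untagged or untreated group was analysed here. The replicate lists and a pooled list each held 30000 regions. A list thresholded by IDR (irreproducible discovery rate, a measure of agreement between replicates) held 3319. Of these, 1211 had a summit within 100 bp among the 3319 highest regions of all 3 replicates, so an IDR region was not always high in every replicate. The read depth behind the regions is unknown. The Hey gene itself had the IDR region of rank 6 by signal, with its summit 471 bp upstream of a Hey transcription start site (TSS).

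Small nucleolar RNAs guide the chemical modification of ribosomal RNA and of small nuclear RNAs. Box C/D snoRNAs direct 2′-O-methylation by fibrillarin, and box H/ACA snoRNAs direct pseudouridylation by dyskerin, which is Nop60B in the fly. Most fly snoRNAs are cut out of the introns of a host transcript and so depend on the host's promoter; common hosts are genes for ribosomal proteins and translation factors, and non-coding U snoRNA host genes (Uhg) whose spliced RNA encodes no known protein. Hey is a basic helix-loop-helix-Orange repressor of the Hairy/E(spl)-related family that acts in Notch signalling and binds E-box-like hexamers such as CACGTG and CACGCG.

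Of the 269 members, 77 carry names of methylation guides (Me), 106 carry names of pseudouridylation guides (Psi) and 86 carry other names, 16 members in all being named as scaRNAs, the related RNAs of Cajal bodies. Their median length was 134 bases, with a range of 46 to 316. A host was a gene on the same strand whose span held the whole snoRNA. By that rule 247 members lay in 90 hosts, of which 53 held 1 snoRNA gene and 19 held 4 or more, and 22 members had no host. Ribosomal protein genes held 76 members in 29 hosts, other protein-coding genes held 126 in 54 hosts, and non-coding genes held 45 in 7 hosts. Members of 1 host share a promoter and can share a region, so distinct regions are given beside counts of genes. The median distance from the snoRNA 5′ end to the nearest host TSS was 1511 bp over all hosted members, 944.5 bp in ribosomal protein genes, 2208 bp in other coding genes and 1203 bp in non-coding hosts.

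The sequences below show what lies at the summits and what the snoRNA genes are, all read from the release 6 genome of RefSeq (dm6 coordinates). The first set is 3 snoRNA genes from hosts bound at their start, with the box C motif TGATGA and the box D motif CTGA in capitals in the pair from RpL14 (chr3L:8601473-8601552 and chr3L:8601948-8602031, plus strand) and the ACA near the 3′ end in capitals in the gene from RpL10Ab (chr3L:11822984-11823124, plus strand).
U49:66Da: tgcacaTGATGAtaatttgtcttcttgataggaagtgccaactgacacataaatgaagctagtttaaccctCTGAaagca
U49:66Db: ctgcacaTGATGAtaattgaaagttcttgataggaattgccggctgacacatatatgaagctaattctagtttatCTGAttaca
Psi18S-920: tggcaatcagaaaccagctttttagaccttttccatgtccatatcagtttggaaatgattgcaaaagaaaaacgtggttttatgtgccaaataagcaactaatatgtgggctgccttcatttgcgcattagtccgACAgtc
The second set is 30-base windows around the 2 hexamers associated with Hey, in capitals, at 4 of the 7 places where they were found within 100 bp of a summit beside a snoRNA host. The CACGTG sites at Fib, RpL11 and Uhg1 are not printed.
RpS4: tttgcagctagcCACGTGctaagttttgtc
RpL10Ab: ttcgcacaagcaCACGCGcccacgaaacta
RpS7: ttatcgatgagaCACGCGcgaacgttgtgc
sta: taccgcctgcaaCACGCGacgcctgaacgc
The third set is windows around the DNA replication-related element (DRE), TATCGATA in capitals, a promoter motif of many growth genes, at 6 summits beside snoRNA hosts.
RpL28: ggcagggcaacTATCGATAagcatttcgta
Stt3A: gtgtatcaagcTATCGATAttctagcaggg
RpS29: atcgtggaaaaTATCGATActgccaccccc
RpS7: ttgtgcgatacTATCGATAcagttgcagga
RpS12: ctctgcgaaacTATCGATAtttgtaccaat
RpL10Ab: ctattaatgaaTATCGATAtatattcgcac
The core hexamers lie at chr3L:13041862-13041867, chr3L:11822798-11822803, chr3R:30208997-30209002 (plus strand) and chrX:1483190-1483195 (minus strand), in the order printed. The DRE cores start at chr3L:3223045, chrX:21053321, chr3R:9778057, chr3R:30209020, chr3L:13023311 and chr3L:11822774, and this motif reads the same on both strands.

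The lists were first asked how many snoRNA genes have a region and in which hosts. An IDR summit lay within 1000 bp of 43 of the 269 snoRNA genes (16%, 95% Wilson interval 12.1 to 20.8), on 29 distinct regions. Over all 18164 genes, 10.7% had one within 1000 bp of a TSS, although a gene with several TSSs has more chances than a snoRNA gene with 1 start. Members in ribosomal protein genes made up most of those with a region: 25 of 76 (32.9%, 23.4 to 44.1) on 17 regions. Members in other coding genes were near a region in 5 of 126 cases (3.97%, 1.71 to 8.95) on 5 regions, and members in non-coding hosts in 6 of 45 (13.3%, 6.26 to 26.2) on 2 regions. Members without a host were near a region in 7 of 22 cases (31.8%, 16.4 to 52.7) on 5 regions. By kind, 17 of 77 methylation guides, 14 of 106 pseudouridylation guides and 12 of 86 members with other names were near a region. These intervals cover counting error over genes only. In the pooled list of 30000 regions, 82 of 269 members (30.5%) had a summit within 1000 bp, against 39.3% of all genes, so in this longer list the share of members was below that of all genes. This did not hold for every class: the share was 52.6% in ribosomal protein hosts and 81.8% without a host. It was 14.3% in other coding hosts and 13.3% in non-coding hosts.

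Regions of a replicate were ranked by the caller's signal, and the 3319 highest and 3319 lowest were compared. The highest regions lay near 40, 37 and 51 members in replicates 1, 2 and 3 (42.7 ± 7.37, SD, n = 3), and the lowest near 10, 3 and 8 (7 ± 3.61). Of all genes, 12.4%, 9.76% and 10.5% were near one of the highest regions and 6.3%, 5.05% and 6.64% near one of the lowest. The 2 sets of counts did not overlap, with a difference of 35.7 genes (two-sided exact permutation test over replicates, p = 0.1, the smallest value that 3 against 3 allows). For ribosomal protein hosts the highest regions lay near 22, 20 and 27 members and the lowest near 2, 0 and 2 (exact p = 0.1). For other coding hosts the counts were 5, 5 and 7 against 4, 2 and 5, which overlapped (exact p = 0.3). Non-coding hosts gave 6, 6 and 9 against 2, 0 and 0, and members without a host gave 7, 6 and 8 against 2, 1 and 1 (exact p = 0.1 in each).

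The next comparison asked whether a summit near a hosted snoRNA lies at the TSS of the host or at the snoRNA itself. All 24 distinct IDR regions near a hosted member had their summit nearer to a host TSS than to the snoRNA gene (100%, 86.2 to 100): 17 in ribosomal protein hosts, 5 in other coding hosts and 2 in non-coding hosts. The median distance was 42 bp to the host TSS and 650 bp to the snoRNA, and the median signed position was 29 bp upstream of the TSS. Of the 24 summits, 18 lay within 100 bp of a host TSS and 20 within 250 bp. The 3 summits within 250 bp of a snoRNA were all also within 250 bp of the host TSS, and 0 lay inside a hosted snoRNA. The summit base was outside the host span for 13 regions, in a host exon for 8 and in a host intron for 3. A summit upstream of the TSS is nearer to it by geometry, since the snoRNA lies inside the host.

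**Figure D1:**
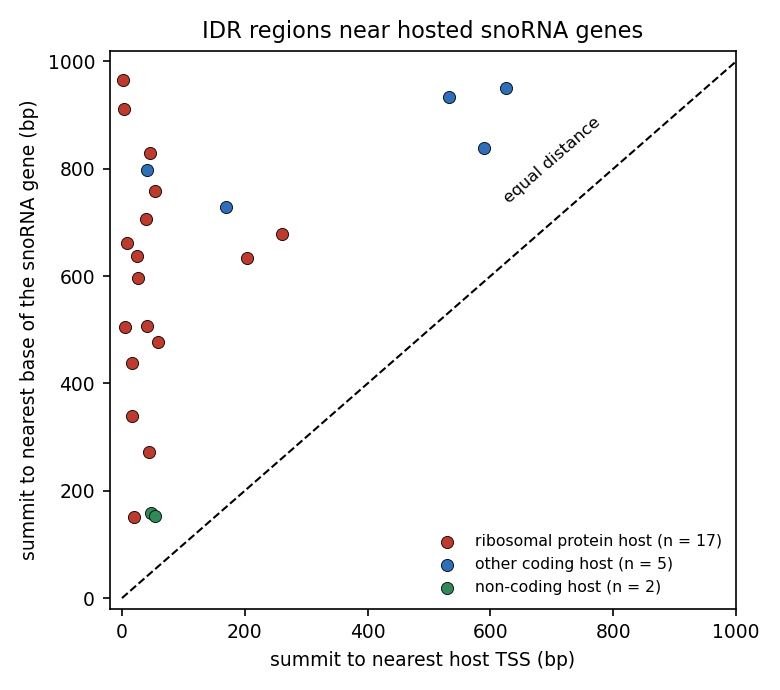
Each point is 1 of the 24 IDR regions near a hosted snoRNA gene, with the distance from its summit to the nearest host TSS (x axis, bp) and to the nearest base of the snoRNA gene (y axis, bp). All points lie above the dashed line of equal distance, and 20 of them are within 250 bp of the TSS.

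Weaker regions lay elsewhere more often in each set compared. Among pooled regions that were not IDR regions, 12 of 30 summits near a hosted member were nearer to the host TSS (40.0%, 24.6 to 57.7). In the replicates, 100%, 100% and 96.6% of such summits among the highest regions were nearer to the host TSS (22, 21 and 29 regions), against 0%, 0% and 50% among the lowest (5, 1 and 4 regions). The means were 98.9 ± 1.96% and 16.7 ± 28.9% (SD, n = 3) and the sets did not overlap (exact permutation test, p = 0.1). The shares among the lowest regions rest on 10 regions in all. Over all coding genes, 9.27%, 6.14% and 6.82% had one of the highest regions within 250 bp of a TSS. For the lowest regions it was 2.18%, 1.59% and 2.32%, so weak regions were less often at coding starts in general. Whether snoRNA hosts differ from other genes in this contrast was not tested.

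Members with a region were nearly all close to the host TSS, which follows in part from the place of the summits. Among hosted members with their 5′ end up to 1000 bp from a host TSS, 33 of 80 had an IDR region (41.2%, 31.1 to 52.2), against 3 of 167 farther away (1.80%, 0.613 to 5.15). Within 1000 bp the shares of the distance bins were close, with overlapping intervals: 7 of 15 at 0 to 250 bp, 7 of 17 at 251 to 500 bp and 19 of 48 at 501 to 1000 bp. In ribosomal protein hosts it was 25 of 42 up to 1000 bp and 0 of 34 beyond, and a count of 0 among 34 allows a share of up to 8.82% by 3 counts of 34, or 10.2% by the Wilson bound. Among members within 1000 bp of a host TSS, the share was 2 of 18 in other coding hosts and 6 of 20 in non-coding hosts. The 3 members farther away were Psi18S-1347a in pAbp, Me28S-G764 in Arf1 and Me28S-U3344a in Stt3A.

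**Figure D2:**
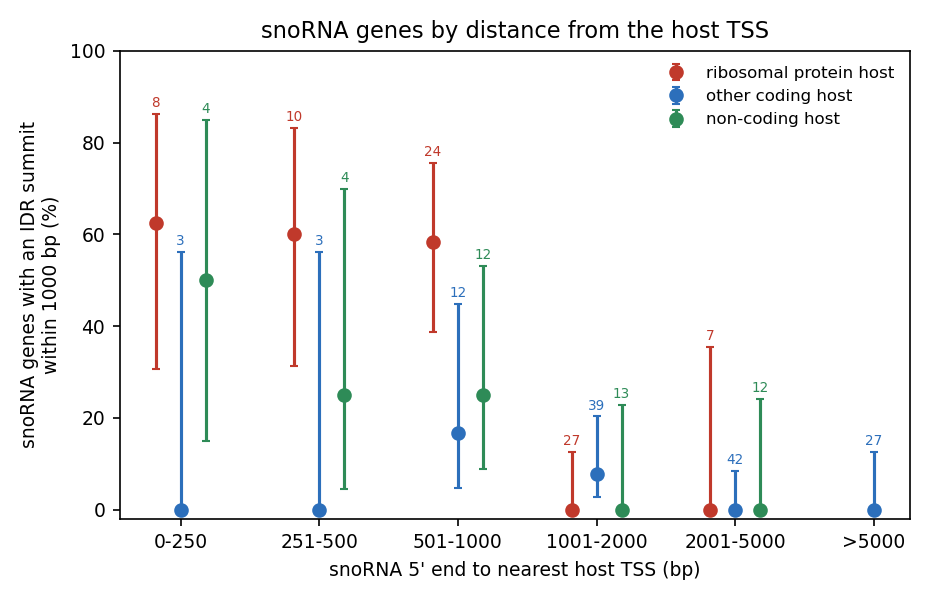
Share of hosted snoRNA genes with an IDR summit within 1000 bp (y axis, %) by distance of the snoRNA 5′ end from the nearest host TSS (x axis, bp), by class of host. Bars are 95% Wilson intervals, the small numbers are genes per point, and ribosomal protein hosts stay near 60% up to 1000 bp and are at 0 beyond.

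The strongest regions beside snoRNA genes belonged to the 2 non-coding hosts with a bound start. Uhg1, which holds 16 snoRNA genes, had the region of IDR rank 97 (signal 675), with its summit 47 bp upstream of the TSS and ranks of 189, 75 and 90 in replicates 1, 2 and 3. Uhg4, which holds 7, had rank 180 (signal 519), 54 bp upstream, and ranks of 371, 134 and 297. In each host 3 snoRNA genes were within 1000 bp of the summit, and the others lie farther along the host. The other 5 non-coding hosts, Uhg2, Uhg3, Uhg5, Uhg8 and CR31647, had no IDR summit at a TSS (within 250 bp); over all ncRNA genes the share was 2.51%.

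Of the 17 regions within 1000 bp of a snoRNA in a ribosomal protein gene, the 12 of highest signal all had their summit within 60 bp of a host TSS. RpS4, a protein of the small subunit, had rank 185 (signal 515) with the summit 1 bp downstream of the TSS and ranks of 362, 145 and 205 in replicates 1, 2 and 3. RpL14, a protein of the large subunit that hosts the U49 pair, had rank 222 (signal 482), 40 bp upstream, and ranks of 283, 216 and 285. These regions were high in every replicate. RpL11 had rank 224 (signal 480), 45 bp upstream, with ranks of 226 and 427 in replicates 1 and 3 and no summit within 100 bp in replicate 2. RpL13A had rank 228 (signal 476), 54 bp upstream, and ranks of 1806, 111 and 152, and RpL28 had rank 310 (signal 411), 59 bp upstream, and ranks of 1189, 156 and 417. Replicate 1 ranked both lower than the other replicates did. RpL17 (rank 459), RpS16 (494), RpL30 (514), RpL27A (590), RpS29 (864), RpS7 (872) and sta (1089), the gene of the small-subunit protein RpSA, followed, with signals of 342, 331, 324, 303, 252, 251 and 218 and summits from 39 bp upstream to 26 bp downstream of a TSS. The remaining 5 ribosomal protein regions, at RpL3, RpS20, RpS12, RpL10Ab and a second summit 260 bp upstream of RpL28, had ranks from 1126 to 2750.

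**Figure D3:**
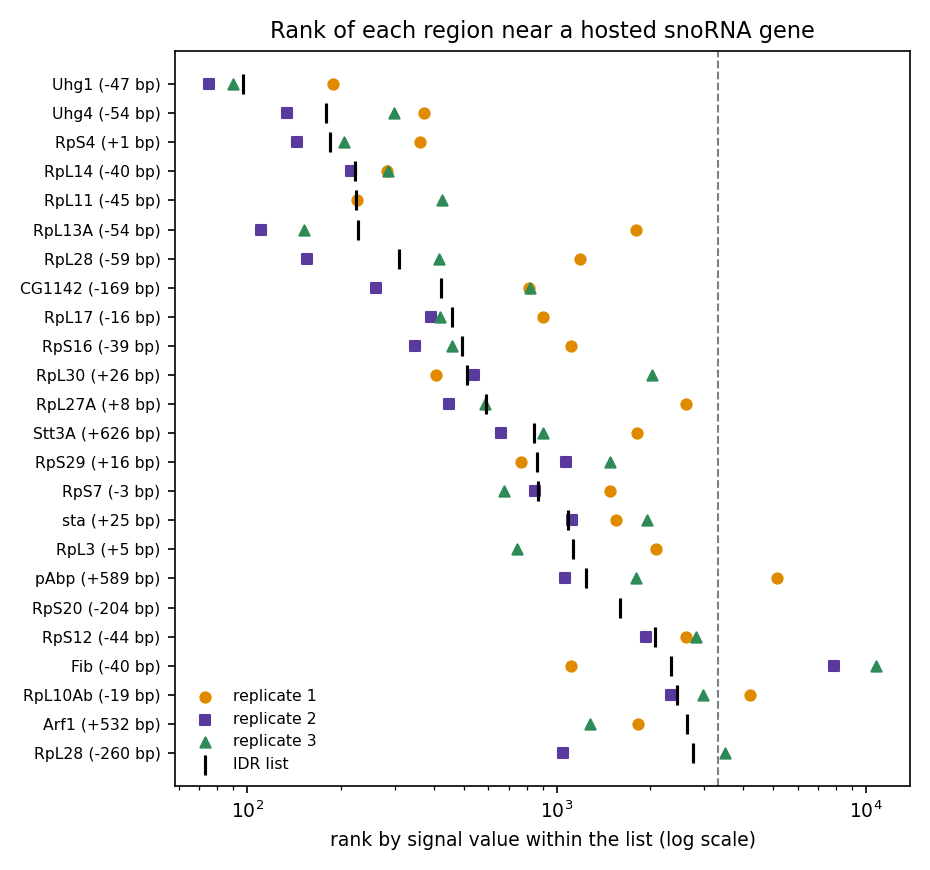
Rank by signal of each of the 24 regions near a hosted snoRNA gene (x axis, log scale, lower is stronger) in the IDR list and in each replicate list, with the summit's signed distance to the host TSS after the host name. A missing marker means no summit within 100 bp in that replicate, and the dashed line is rank 3319.

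Of the 24 regions, 16 had a summit within 100 bp among the highest regions of all 3 replicates, 5 of 2 replicates, 2 of 1 replicate and 1, at RpS20, of none. Among all 3319 IDR regions, 1211 had such a summit in all 3 replicates. Replicates 1, 2 and 3 held 20, 19 and 21 of them among their highest. Over the 19 regions matched in all 3 replicates, the summit moved by a median of 49 bp (7 to 114) between replicates. Another gene's TSS lay within 250 bp of 5 of the 24 summits, and it was nearer than the host's for 2. These were RpS20, whose region was 204 bp upstream of its own TSS and 129 bp from that of CG17271, and the second RpL28 summit, 121 bp from the TSS of eIF1, a translation initiation factor. For these 2 regions the host and its neighbour cannot be told apart. The others were RpL14 (40 bp from its own TSS and 87 bp from that of Nelf-E), Fib (40 bp and 58 bp, CG3085) and sta (25 bp and 212 bp, inc). At RpL14 and Fib the TSSs lie so close together that the host and its neighbour cannot be told apart either. Replicates 1 and 3 listed other summits at the RpS20 TSS, with ranks of 3510 and 2032.

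Other coding hosts had 5 regions. CG1142 (rank 422, signal 358) had its summit 169 bp upstream of the TSS with ranks of 812, 260 and 818. Fib, the gene of fibrillarin and host of 1 snoRNA gene, had rank 2347 (signal 142), 40 bp upstream, with ranks of 1114, 7894 and 10790, so it was among the highest in replicate 1 alone. Its summit was also 58 bp from the TSS of CG3085. The remaining 3 lay inside an intron, between the host TSS and the snoRNA: Stt3A, a catalytic subunit of oligosaccharyltransferase (rank 843, signal 255, 626 bp downstream of the TSS), pAbp, the poly(A)-binding protein (rank 1244, signal 205, 589 bp) and Arf1, a Golgi GTPase (rank 2631, signal 133, 532 bp). Their distances to the snoRNA were 950, 838 and 933 bp, and no other gene's TSS was nearer than the host's. The Stt3A region had ranks of 1820, 659 and 902. For pAbp the ranks were 5132, 1065 and 1802, so it was not among the highest of replicate 1. Arf1 had ranks of 1830 and 1281 in replicates 1 and 3 and no summit within 100 bp in replicate 2.

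Of the 5 hosts with the most snoRNA genes, 2 had an IDR summit at a TSS. Arpc2, a subunit of the actin-nucleating Arp2/3 complex, holds 17 and had none. Uhg1, with 16, was described above. Domino (dom), a chromatin remodelling ATPase, holds 15 and RpS5a holds 14; dom had no IDR summit at a TSS, while RpS5a had one of rank 804 (signal 263), 42 bp upstream, with ranks of 3125, 354 and 970. None of the 14 RpS5a members was within 1000 bp of it. Uhg5, with 11, had none. In all, 32 of 90 hosts (35.6%, 26.4 to 45.8) had an IDR summit at a TSS, within 250 bp. They hold 101 snoRNA genes, 33 of which were within 1000 bp of it, and 12 of the 32 hosts had no such member.

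Ribosomal protein hosts were compared with ribosomal protein genes that hold no snoRNA. An IDR summit was found within 250 bp of a start site in 21 of 29 hosts (72.4%, 54.3 to 85.3) and in 31 of 63 ribosomal protein genes without snoRNA (49.2%, 37.3 to 61.2), or 52.5% of 59 when genes with "-like" names were left out. Over all protein-coding genes the share was 7.16%. Among the highest regions of replicates 1, 2 and 3 the share was 65.5%, 62.1% and 82.8% in hosts and 27.0%, 50.8% and 60.3% in the other ribosomal protein genes, against 9.27%, 6.14% and 6.82% of all coding genes. Among the lowest regions it was 3.45%, 0% and 0% in hosts, against 2.18%, 1.59% and 2.32% of all coding genes. The highest-region shares of hosts were higher in 3 of 3 replicates and did not overlap those of other ribosomal protein genes, with a mean difference of 24.1 points (exact permutation test over replicates, p = 0.1, Benjamini-Hochberg adjusted p = 0.1 over 4 comparisons). With "-like" genes left out, the shares of the other ribosomal protein genes were 28.8%, 54.2% and 62.7%. Hosts were still higher within each replicate, but the sets then overlapped, and this version was not tested. This test was unpaired, although both shares come from the same replicate lists. The Wilson intervals of the IDR shares, which cover counting error over genes, overlap. Hosts also had more annotated TSSs per gene (mean 1.97 against 1.59), and its part in the difference was not tested. Other coding hosts were bound at a TSS in 9 of 54 cases (16.7%, 9.02 to 28.7), with 25.9%, 11.1% and 16.7% among the highest regions of the replicates (exact p = 0.1 against all coding genes, adjusted p = 0.1, a mean difference of 10.5 points). They had a mean of 2.02 annotated TSSs per gene, and 3.33 in the 9 bound ones, against 1.41 over all coding genes, and the part of this in the difference was not tested. These 9 were mask, CG1142, CG12316, lola, eEF1alpha1, tou, Dys, drn and Fib, which were named after their values were seen, with the exception of CG1142 and Fib.

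**Figure D4:**
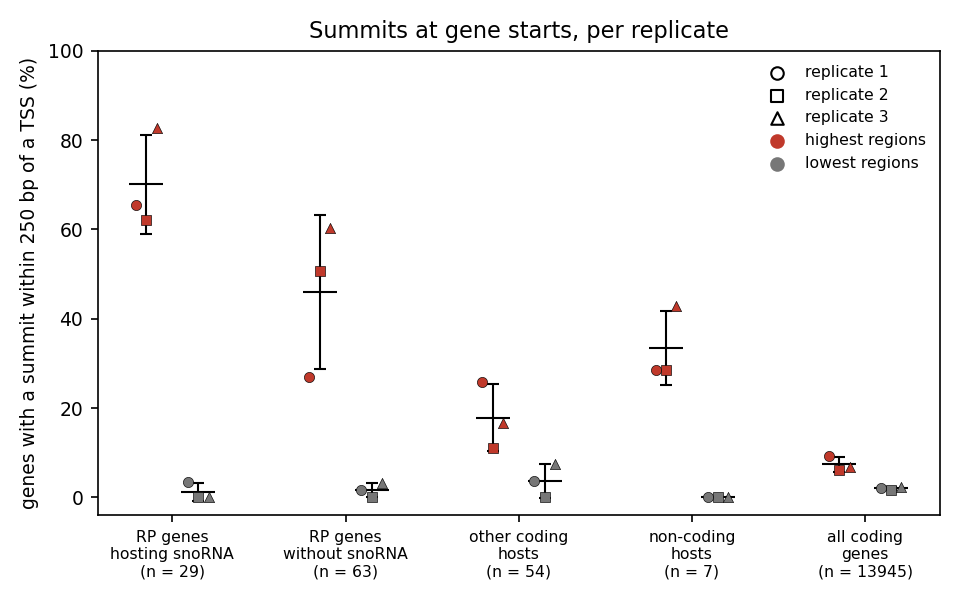
Percent of genes with a summit within 250 bp of a TSS (y axis) among the 3319 highest (red) and 3319 lowest (grey) regions of each replicate, by gene group; bars are mean ± SD over 3 replicates. Ribosomal protein (RP) genes that host snoRNAs lie between 62.1% and 82.8% for the highest regions, and all coding genes between 6.14% and 9.27%.

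Motifs within 100 bp of the summit, on either strand, were counted in the 24 regions. CACGTG was present at 4 (16.7%, 6.68 to 35.9), against 17.1% of all 3319 IDR regions and 6.39% of the 876 IDR regions at a coding TSS. CACGCG was present at 3 (12.5%), against 15% and 13%. TATCGATA was present at 6 (25.0%, 12.0 to 44.9), against 1.39% and 4.79%, and GAGAGAG at 0, against 6.36% and 7.08%. In regions at the TSSs of ribosomal protein genes TATCGATA was present at 5 of 21 in hosts and 9 of 31 in genes without snoRNA, so the motif was not limited to hosts. Within 100 bp of a TSS it lay in 27.6% of ribosomal protein hosts, 30.2% of ribosomal protein genes without snoRNA, 20.4% of other coding hosts and 8.49% of all coding genes. The 11 other coding hosts with TATCGATA near a TSS had 0 IDR summits there. Among ribosomal protein hosts, 6 of 8 with the motif and 15 of 21 without it had an IDR summit at a TSS. CACGTG near a TSS gave 6 of 7 with it and 15 of 22 without in these hosts, 7 of 15 and 24 of 48 in ribosomal protein genes without snoRNA, and 1 of 7 and 8 of 47 in other coding hosts. For CACGCG, in the same order of groups, it was 3 of 3 and 18 of 26, 8 of 12 and 23 of 51, and 3 of 11 and 6 of 43. These differences were not tested. A match is a description of the sequence and not a binding site.

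Members without a host gave 5 regions. Psi18S-301 had the strongest (rank 335, signal 399), with the summit 297 bp upstream of its 5′ end, ranks of 237, 591 and 445, and the nearest other TSS, of TFAM, 2401 bp away. Me28S-C2789 (rank 1298, signal 201) had its summit 872 bp downstream of the 5′ end, and the snoRNA gene lies inside CG42238 on the opposite strand. Its region had ranks of 3801, 951 and 875, so it was not among the highest of replicate 1. MeU1b-A234, Or-ACA6 and Or-CD13 share a region of rank 2137 (signal 150), with ranks of 2229, 2871 and 3122. These genes lie inside egr, the gene of the TNF ligand Eiger, which runs on the opposite strand. Psi28S-2622 (rank 2669, signal 132) had its summit 781 bp downstream of its 5′ end and 140 bp upstream of a TSS of stet, a gene of a rhomboid protease. This region had ranks of 3413 and 5329 in replicates 1 and 3 and no match in replicate 2, so it was among the highest of no replicate. Psi28S-3342 (rank 1803, signal 165) had its summit inside the snoRNA gene, 26 bp from the 5′ end, with ranks of 3841, 3471 and 1064, so it was among the highest of replicate 3 alone. It is shown whole because it is the only member with an IDR summit inside, at chrX:5524302-5524465 on the minus strand, with a CACGCG at base 20 in capitals.
Psi28S-3342: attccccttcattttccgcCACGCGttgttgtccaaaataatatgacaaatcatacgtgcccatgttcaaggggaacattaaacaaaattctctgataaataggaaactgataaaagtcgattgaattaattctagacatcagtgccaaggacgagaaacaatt
This 1 summit is 0.0311 per kb of snoRNA sequence, against 0.0248 IDR summits per kb over the 6 arms. In the pooled list 4 summits lay inside a snoRNA gene, or 0.124 per kb, against 0.224 per kb over the arms. The full lists of replicates 1, 2 and 3 had 5, 5 and 11, or 0.155, 0.155 and 0.342 per kb against the same 0.224, so the rate was above that of the arms in replicate 3 and below it in the other replicates. Among the highest regions the counts were 0, 0 and 2.

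Introns of the hosts were compared away from the TSS, counting only positions over 500 bp from a host TSS. IDR summits numbered 7 in 157 kb of introns with a snoRNA (0.0447 per kb, exact Poisson interval 0.0180 to 0.0921) and 20 in 378 kb of introns without one (0.0530 per kb, 0.0324 to 0.0818). The pooled list gave 0.306 and 0.286 per kb. Long introns held most of these summits: with introns up to 3000 bp alone, IDR summits numbered 1 in 57.1 kb with a snoRNA (0.0175 per kb) and 5 in 127 kb without (0.0394 per kb), and the pooled rates were 0.105 and 0.118 per kb, in the opposite order. The intervals overlap in each of these comparisons, and they cover counting error only.

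The proteins that work with snoRNAs were looked at as a list of 12, all matched in the annotation. IDR summits lay within 1000 bp of a start site for 2 of the 12: Fib, described above, and CG10341, the fly Naf1, an assembly factor of box H/ACA particles (rank 2341, 44 bp downstream of the TSS, with ranks of 8496, 5387 and 1027). The box C/D core proteins Nop56, nop5 and hoip, the box H/ACA core proteins Nop60B, NHP2, Gar1 and Nop10, the nucleolar chaperone Nopp140 and the assembly ATPases pont and rept had none. In replicates 1, 2 and 3, 3, 1 and 1 of the 12 had one of the highest regions. With 12 genes these counts are near the shares of all genes, which were 10.7% for IDR regions and 12.4%, 9.76% and 10.5% for the highest regions of the replicates. Nop60B itself hosts 7 snoRNA genes.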

How the data were processed

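Regions came from 1 IDR list, 1 pooled list and 3 replicate lists in narrowPeak format on assembly dm6, per the labels. Per the listings that the authors deposited beside them, each replicate's regions were called against a control, the pooled regions from all 3 alignments against a control, and the IDR list was made from these. No source used here names the caller, the IDR threshold or the sequencing depth. The signal column as deposited by the authors is the caller's own value of unstated scale and only ranked regions within a list. The −log10 q-value column deposited by the authors was tied at its highest value for many regions and was not used. Genes, TSSs and biotypes came from Ensembl release 115 of BDGP6.54, which shares dm6 coordinates; a host had to lie on the same strand, and any annotated TSS of a host counted, internal ones included. Ribosomal protein genes were taken by symbol (92 genes, "-like" names included). Replicates were compared by exact permutation, unpaired unless a replicate block is named, and shares have Wilson intervals. Python 3.11.15, numpy 2.4.6, pandas 2.3.3 and scipy 1.17.1 were used. The assignment was tested on simulated summits: 16 of 16 placed at a host TSS and 17 of 17 placed in a snoRNA were assigned correctly, in hosts whose snoRNA genes all lay over 400 bp from a TSS. By that choice such summits lie far from the other feature, so the check covers the code and not summits in between. Where an annotated TSS falls inside another snoRNA of the host, as in RpL28, the rule cannot separate the 2. Regions named in the text are all IDR regions near members in order of signal, up to 12 per host class, with the 5 hosts of most snoRNA genes, every hostless member with a region and the list of snoRNA proteins. Members, lists and rules were chosen with earlier results of these data known. The labels call the samples biological replicates and name no separate collections, so p-values measure the spread between these samples, which may be technical.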

Additional observations from a re-analysis of the deposited data

How the results depend on the processing

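The number of members near an IDR region depends on the distance limit by construction: it was 11 genes on 10 regions at 500 bp and 86 genes at 2000 bp, and the share in ribosomal protein hosts was 6.58% and 67.1%. The share of members over 1000 bp from a host TSS was 0% and 19.8% at these limits, and 3.98% with hosts on either strand. With IDR regions high in all 3 replicates there were 18 distinct regions, 0.599% of far members had one, and 23.3% of hosts had a summit at a TSS. With 1 replicate left out in turn, the lists gave 31 to 36 genes, 18 to 22 regions, 25.0% to 26.3% of members in ribosomal protein hosts, 0.599% to 1.80% of far members and 24.4% to 25.6% of hosts, from shorter lists of 1518 to 1944 regions. For IDR regions, the share nearer to the host TSS was 92.6% to 100% under every alternative run on it. In the full lists, which include weaker regions, this share was lower. It was 66.7% (36 of 54) in the pooled list and 50.0%, 71.8% and 60.5% in replicates 1, 2 and 3. The difference between highest and lowest regions was 10.7 to 70.7 genes over the other settings, and 32 to 38.5 without 1 replicate (exact p = 0.333, the smallest for 2 against 2). With a replicate block, by exact sign flips within replicates, it was 35.7 genes (p = 0.25, the smallest that 3 pairs allow). The difference in nearness, an alternative added after seeing the data, was 73.3 to 100 points without 1 replicate. Depth is unknown, so an absent region says only that none was called; weak regions and Wilson intervals rest on few summits.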

Other observations

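Ribosomal protein genes often start transcription at a pyrimidine-rich initiator. CTTT with its C within 3 bp of an annotated TSS, on the sense strand, a motif chosen after the data were seen, was present in 12 of 29 ribosomal protein genes that host snoRNAs and in 19 of 63 that do not, against 4.74% of all protein-coding genes. Among the 29 hosts it was present in 10 of 21 with an IDR summit at a TSS and 2 of 8 without. The other coding hosts had it in 6 of 54 cases and the non-coding hosts in 2 of 7.

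At RpS3A, a ribosomal protein host on arm 4 with no IDR summit at its TSS, replicate 3 alone listed a summit within 250 bp of the TSS, 17 bp upstream with rank 1762.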
